A study of Mus with 2 samples.

Results

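The genes described here are 8 genes of naive T cells and lymphoid homing, chosen by name: the chemokines Ccl19, Ccl21a and Cxcl13, the receptors Ccr7 and S1pr1, and the transcription factors Tcf7, Lef1 and Klf2. They are 8 of the 32285 features measured, and all 8 were found. In the section from the rIL7-treated mouse Ccr7, Tcf7, Ccl19 and Cxcl13 were higher than in the control section, Klf2 was lower, and Ccl21a had no count. Ccl19 and Cxcl13 lay mostly in the outer margin of the rIL7 section, where Ccr7, Tcf7, Lef1 and Klf2 were also higher than in its interior, and Ccl19 shared spots with Ccr7 and with Cxcl13 there. Lef1 and S1pr1 did not differ between the sections beyond counting error.

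Naive and central memory T cells enter lymph nodes through CCR7, whose ligands CCL19 and CCL21 are made by stromal cells and lymphatic vessels, and CCL19 also by mature dendritic cells. CXCL13 attracts B cells and follicular helper T cells through CXCR5 and is a chemokine of organised lymphoid aggregates. S1PR1 lets T cells leave tissue along a gradient of sphingosine 1-phosphate, and KLF2 drives its transcription, while TCF7 and LEF1 keep T cells in a naive or stem-like state. KLF2 and S1PR1 are also abundant in blood endothelium, so counts of these genes in tissue are not specific to T cells. Which cells held the Ccr7 UMIs was not tested, so Ccr7 too is not read here as a count of T cells.

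The tissue was CT26 tumor, a mouse colon carcinoma line grown under the skin of BALB/c mice aged 6 to 8 weeks. One section of 10 µm came from a mouse given 10 µg of recombinant IL-7 (rIL7) into the peritoneum on days 11 and 13, and the other from a control mouse given PBS; both tumors were collected on day 15. RNA was counted in Visium spots, small capture areas that each hold several cells, as unique molecular identifiers (UMIs), 1 per captured transcript. Each group is 1 section, so no test was possible, no p-value is given, and every difference is between 2 sections, not between treatments.

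The kept spots numbered 2219 (control) and 1950 (rIL7), with 22951678 and 25729233 UMIs and medians of 9623 and 12921.5 UMIs per spot. Levels are given as UMIs per 1000000 (CPM), and intervals are 95% and cover counting error only. The sections shared 1702 spot barcodes, which belong to the array design. The skin and muscle list stood apart: 5 of its 6 genes were lower by 2-fold or more with rIL7, beside 2.09% of all genes with at least 20 UMIs. Krt14, a keratin of basal skin cells, had 250 UMIs in the control against 1. Its part in the results below was not tested.

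Among the chemokines, Ccl19 was counted 3 times in the control and 34 times in the section with rIL7. That is 0.131 and 1.32 CPM, a ratio of 10.1 (interval 3.18 to 51.4). Each section was also split into 4 quadrants at the median array row and column. The Ccl19 quadrants did not overlap, at 0 to 0.265 CPM in the control and 0.300 to 2.49 CPM with rIL7. The gap was narrow: the nearest quadrants held 1 UMI in the control and 2 UMIs with rIL7. Cxcl13 had 13 UMIs in the control and 83 with rIL7, 0.566 and 3.23 CPM, a ratio of 5.70 (3.15 to 11.1). Its quadrants ranged from 0 to 1.26 CPM in the control and overlapped those with rIL7, at 0.849 to 6.73 CPM. Ccl21a went the other way. It had 19 UMIs in the control and 0 with rIL7. That is 7.10-fold lower when the 0 is set to a floor of 3 UMIs, and the counting interval gives at least 5.23-fold. Of those 19 UMIs, 12 lay in 1 spot, and without that spot the log2 ratio with the same floor was -1.39.

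Ccl19 and Ccl21a each appear under 2 gene identifiers, and Ccl21b and Ccl21c under 2 each. Every UMI fell to 1 identifier of Ccl19 and 1 of Ccl21a, and the other 6 had 0 in both sections. These copies are nearly identical in mice, so the assignment of their reads between copies is uncertain.

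By the RefSeq annotation of GRCm38, Ccl19 lies on chromosome 4 (42754525 to 42756365) beside Ccl21a (42772860 to 42773991), and Cxcl13 on chromosome 5 (95956939 to 95961068).

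Of the receptors, Ccr7 (chromosome 11, 99144199 to 99155077) had 60 control UMIs and 158 with rIL7. Its level was 2.61 against 6.14 CPM, a ratio of 2.35 (1.73 to 3.22), although the quadrants overlapped, at 1.64 to 3.70 CPM and 3.39 to 9.37 CPM. S1pr1 had 207 and 255 UMIs, a log2 ratio of 0.14 (-0.13 to 0.41), an interval that included no difference.

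Of the transcription factors, Tcf7 (TCF1) had 19 control UMIs and 93 with rIL7, a ratio of 4.37 (2.65 to 7.58). Its quadrants started at 0.572 CPM in the control and all lay below those of the rIL7 section, at 2.52 to 4.50 CPM. Lef1, the close relative of Tcf7, had 25 and 28 UMIs, and its ratio of 0.999 (0.562 to 1.79) left room for a difference of either sign. Klf2 had 1408 control UMIs and 1131 with rIL7. The ratio was 0.717 (0.662 to 0.775), and the quadrants lay apart, with 53.9 to 65.4 CPM against 39.5 to 49.2 CPM.

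**Figure D1:**
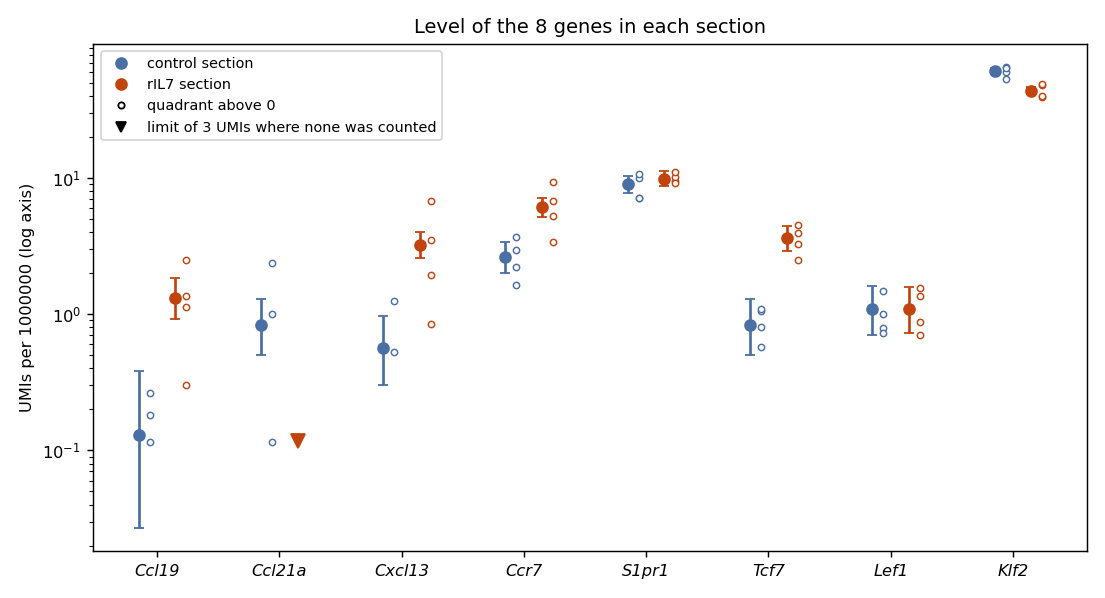
Level of each gene in the control section (blue) and the rIL7 section (orange) in UMIs per 1000000 on a log axis. Filled points are section levels with exact 95% Poisson intervals, open points are the quadrants above 0, and the triangle is the limit of 3 UMIs for Ccl21a, which had none in the rIL7 section. The quadrants of Tcf7, Ccl19 and Klf2 lie apart, those of Ccl19 narrowly.

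Over the 7 genes with at least 20 UMIs the median log2 ratio of rIL7 over control was 1.23, against -0.00 over 14313 genes. Ccl21a, with 19 UMIs, was below that minimum, and over all 8 genes the median was 0.68. Ccr7, Tcf7, Ccl19 and Cxcl13 were at least 2-fold higher, 4 of 7, beside 4.05% of all genes, and 0 of 7 were at least 2-fold lower, beside 2.09%. Ccl19, Cxcl13 and Tcf7, with 3, 13 and 19 control UMIs, passed the minimum of 20 through the rIL7 section alone, so this median and these counts are descriptions and support nothing. Quadrants lay apart upward for 2 of the 7, Tcf7 and Ccl19, beside 9.74% of all genes, and downward for 1 of the 7, Klf2, beside 9.77%. Tcf7 and Ccl19 passed the minimum through the rIL7 section alone, so these quadrant counts too are descriptions and support nothing. For Ccl19 the gap was narrow, as given above.

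Counts of T cell genes differed in the same direction. Of 12 T cell genes, 11 were at least 2-fold higher in the rIL7 section, beside 4.05% of all genes, with Cd28, a co-stimulatory receptor, highest at 4.88 and Trbc2, a T cell receptor constant gene, lowest at 1.17. Cd3d, Cd3e and Cd3g together had 350 control UMIs and 1280 with rIL7. Per 100 of those UMIs, Ccr7, whose UMIs were not assigned to a cell type, was at 17.1 (12.8 to 22.6) in the control against 12.3 (10.4 to 14.6). Tcf7 was at 5.43 (3.23 to 8.61) and 7.27 (5.82 to 8.97), with overlapping intervals. Lef1 was at 7.14 (4.56 to 10.7) and 2.19 (1.45 to 3.18), lower per T cell receptor complex UMI in the rIL7 section. Klf2, at 402 (358 to 454) and 88.4 (81.5 to 95.8), and S1pr1, at 59.1 (49.6 to 70.4) and 19.9 (17.3 to 22.8), were lower too. Since the Cd3 UMIs were higher with rIL7, a gene of equal CPM in both sections, such as Lef1, is lower on this scale. More cells of a type and more RNA per cell cannot be told apart in spots.

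The share of spots with a UMI depends on depth, so spots were also thinned to 5900 UMIs each. Spots with Ccr7 made up 2.48% of the control and 6.41% of the rIL7 spots before thinning, and 1.20% against 2.73% after it. Spots with Klf2 made up 44.3% and 42.8% before thinning, and 29.6% against 22.4% after it, which is the direction of the CPM values.

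The outer margin was taken as the rim, the spots of the 2 outermost grid rings of the largest piece of tissue, against the interior, the remaining spots of that piece. The control rim held 401 spots and the rIL7 rim 330, and the interiors 1806 and 1599. Median depth per spot was 10901 UMIs (control) and 11165.5 UMIs (rIL7) in the rims, and 9482 and 13162 in the interiors.

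Ccl19 lay almost wholly in the rIL7 rim. It had 31 UMIs in the rim and 2 in the interior of the rIL7 section, a ratio of 85.4 (21.7 to 737), and 0 and 3 in the control section. Cxcl13 had 59 UMIs in the rIL7 rim and 22 in the interior, a ratio of 14.8 (8.92 to 25.3). In the control it had 3 and 10, a ratio of 1.23 whose interval reached both sides of 1. Ccl21a in the control had 12 rim UMIs, all in the spot named above, and 6 interior UMIs.

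Ccr7 was higher in the rim of both sections. The control had 25 UMIs in the rim and 34 in the interior, a ratio of 3.02 (1.73 to 5.22), and the rIL7 section 70 and 83, a ratio of 4.65 (3.33 to 6.47). S1pr1 had ratios of 0.729 (0.480 to 1.07) in the control and 0.927 with rIL7, neither beyond counting error.

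Tcf7 had 2 rim and 17 interior UMIs in the control and 35 and 57 in the rIL7 section, where the ratio was 3.39 (2.16 to 5.25). Lef1 had 11 rim and 17 interior UMIs in the rIL7 section, a ratio of 3.57 (1.51 to 8.07), against 1.60 in the control, where only 7 rim UMIs were counted. With a rim of 1 ring, which held 3 Lef1 UMIs, the log2 ratio of Lef1 with rIL7 was 0.65 in place of 1.83, short of 2-fold. Klf2 was even in the control, with 61.5 CPM in the rim and 61.3 CPM in the interior, an interval for the ratio of 0.876 to 1.15. With rIL7 it was 64.0 CPM in the rim and 40.1 CPM in the interior, a ratio of 1.60 (1.38 to 1.84). The lower Klf2 of the rIL7 section was thus in the interior: interior against interior gave 0.654 (0.598 to 0.715) and rim against rim 1.04 (0.873 to 1.24).

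**Figure D2:**
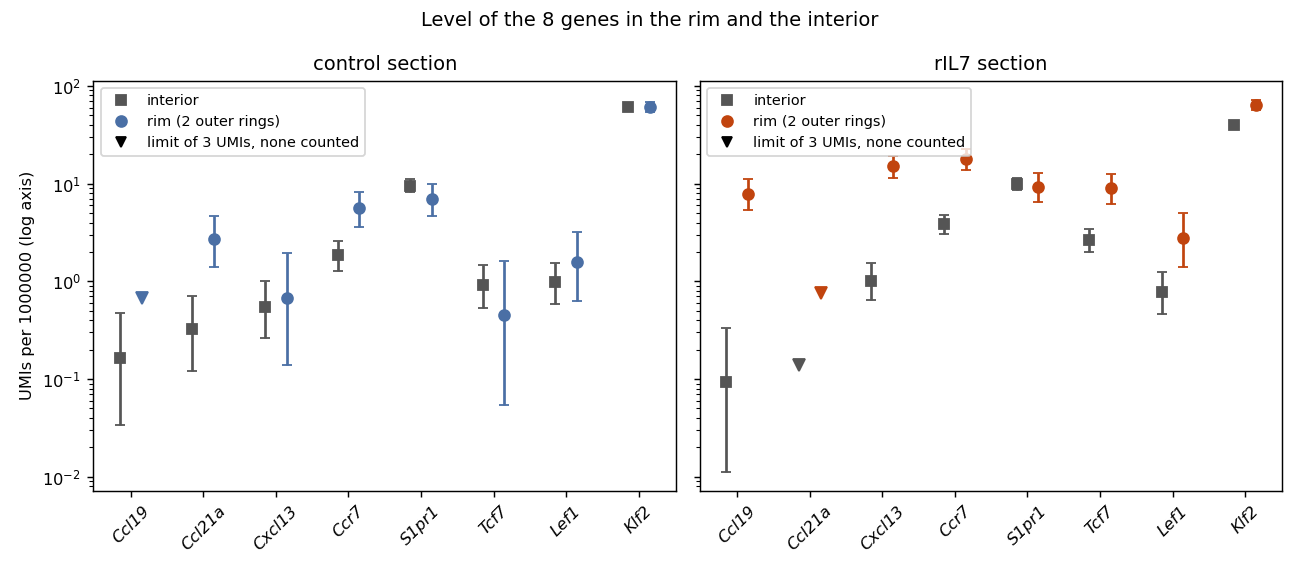
Level of each gene in the interior (grey squares) and the rim (coloured circles) of each section, in UMIs per 1000000 on a log axis with exact 95% Poisson intervals. Triangles mark the limit of 3 UMIs where none was counted. In the rIL7 section Ccl19, Cxcl13, Ccr7, Tcf7, Lef1 and Klf2 sit higher in the rim, and S1pr1 does not.

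The median log2 ratio of rim over interior was 1.83 over 7 genes in the rIL7 section, against -0.05 over all genes tested, and 0.34 over the 4 genes with at least 20 UMIs in the control section, against -0.06. At least 2-fold higher in the rim were 5 of 7 in the rIL7 section (Ccr7, Tcf7, Lef1, Ccl19 and Cxcl13), beside 6.83% of all genes, and 1 of 4 in the control (Ccr7), beside 1.03%. At least 2-fold lower were 0 of 7 and 0 of 4, beside 3.41% and 2.28%. Ccl19, with 2 interior UMIs, passed the minimum through the rIL7 rim alone, so these medians and counts too are descriptions only.

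Whether the rim pattern differed between the sections was read from the ratio of the 2 rim-to-interior ratios. It excluded 1 for Klf2, at 1.59 (1.31 to 1.94), and for Cxcl13, at 11.7 (2.68 to 72.0), and both held with a rim of 1 or 3 rings. For Tcf7 it was 6.92 (1.49 to 65.3) with 2 rings, but its interval included 1 with 1 ring (0.986 to 311) and with 3 rings (0.496 to 4.72). For Ccl19 only a lower bound of 4.65 could be given, since the control rim had none, and with 3 rings the interval of 0.185 upward included 1. For Ccr7 it was 1.54 (0.804 to 2.96) with 2 rings and 4.24 (1.93 to 10.1) with the outermost ring alone, so it depended on the width of the rim. That ring held 58 Ccr7 UMIs in the rIL7 section. It included 7 of the 8 spots of 1 adjacent group, described below, that held 26 Ccr7 UMIs. The part of that group in the value of 4.24 was not tested. Lef1, at 2.21 (0.610 to 8.45), and S1pr1, at 1.27 (0.733 to 2.22), did not show a difference.

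By rings, Ccr7 in the rIL7 section stood at 32.0 CPM in ring 1, 5.69 in ring 2 and 2.97 from ring 13 inward. Ccl19 fell from 12.7 CPM in ring 1 to 3.79 in ring 2 and 0.555 in rings 3 to 4, with no UMI further in. Cxcl13 reached deeper, with 18.2, 12.3 and 2.22 CPM over the same rings. Klf2 was 71.7 CPM in ring 1 and 39.3 CPM from ring 13 inward, whereas in the control its rings stayed between 56.7 and 65.5 CPM.

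**Figure D3:**
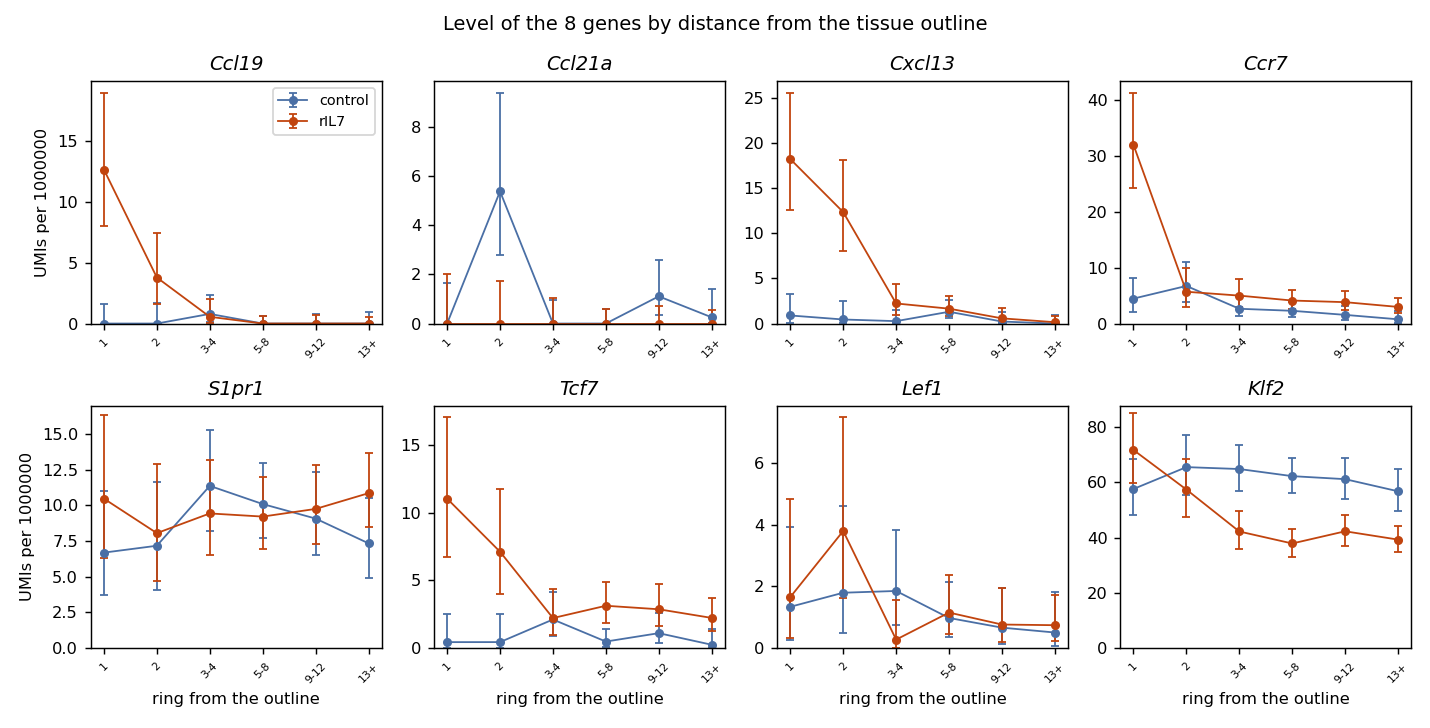
Level of each gene, in UMIs per 1000000, by ring counted inward from the tissue outline, for the control (blue) and the rIL7 (orange) section, with exact 95% Poisson intervals and an axis that differs between genes. Ccr7, Ccl19, Cxcl13 and Tcf7 are highest in ring 1 of the rIL7 section; S1pr1 is flat.

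The rim UMIs were not spread evenly along the outline. The quadrant of high rows and high columns of the rIL7 section held 15 of 31 rim UMIs of Ccl19, 32 of 70 of Ccr7 and 36 of 59 of Cxcl13. Without that quadrant the log2 ratio of rim over interior for Ccl19 was 4.75 in place of 6.42, and between the sections the log2 ratio was 1.79 in place of 2.51 for Cxcl13, 2.78 in place of 3.34 for Ccl19 and 0.93 in place of 1.23 for Ccr7, which ends its 2-fold call. The largest group of adjacent spots with Ccr7 had 8 spots, 7 of them in ring 1, and 26 of the 158 Ccr7 UMIs (16.5%), with 10 in its top spot. Without these spots the log2 ratio of rim over interior for Ccr7 was 1.59 in place of 2.22, and that between the sections was 0.98, also short of 2-fold. The control section had no comparable group: the group with most Ccr7 UMIs was 1 spot with 3.

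Since that group was chosen by Ccr7, its other genes were compared with the rest of the rIL7 rim. The 888 genes considered had at least 20 UMIs inside the group itself, so high values there are favoured and are given as a description. Vwf and Eln, genes of vessel lining and wall, were 36.7 (20.4 to 66.3) and 28.6 (17.6 to 46.0) times the level of the other rim spots, and Myl9, a myosin light chain of smooth muscle, 33.9 times. Cfd and Car3, genes of adipocytes, were at 17.9 (11.2 to 28.3) and 16.9 (9.67 to 28.6) times. Cdh5, an endothelial adhesion molecule, was at 14.7 times, and Ccl22, a chemokine of mature dendritic cells, at 14.6 times. The blood endothelial list was 6.44 times (5.03 to 8.15) and the mature dendritic cell list 4.95 times (4.13 to 5.90) as high, and the T cell list 2.92 times (2.48 to 3.43). The CT26 tumor list was at 0.421 times (0.292 to 0.586). Ackr1, a decoy chemokine receptor of venules, had 7 UMIs there and 10 in all other rim spots. In the spot with 12 Ccl21a UMIs, of 3706 UMIs in all, the lymphatic list had 1 UMI, of Pdpn. The blood endothelial list had 3 UMIs, 8.43 times (1.73 to 24.8) the level of the other control rim spots. The fibroblast list had 19 UMIs, 3.37 times (2.03 to 5.27) that level. Prox1 and Mmrn1, defining markers of lymphatic endothelium, were at 0 in both sections. The other genes of that list, Lyve1, Flt4 and Pdpn, had UMIs in both sections. Flt4 had 1 UMI in the Ccr7 group and 3 in the other rIL7 rim spots.

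**Figure D4:**
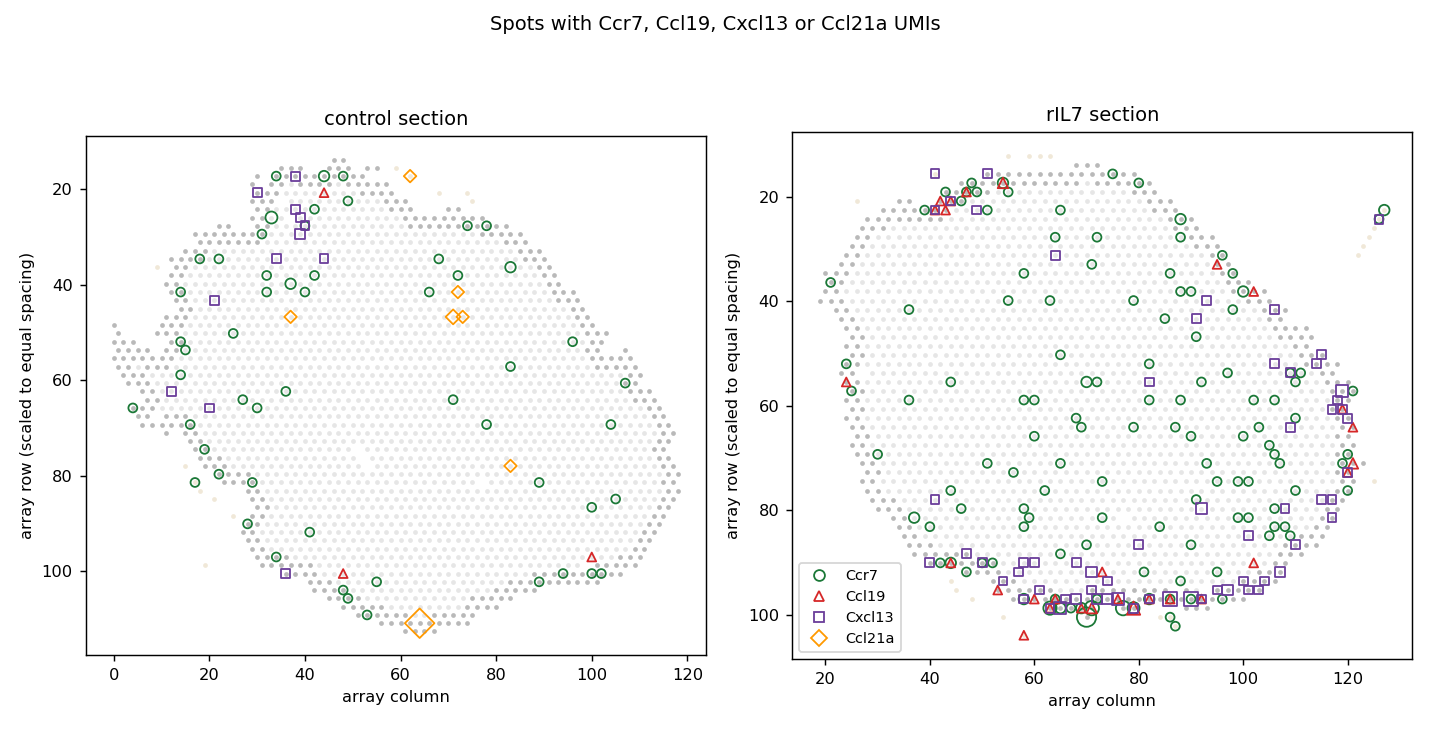
Spots of each section by array column and row, the row axis scaled so that neighbours are equally far apart; light grey is interior, dark grey rim. Symbols mark spots with UMIs of Ccr7 (circles), Ccl19 (triangles), Cxcl13 (squares) or Ccl21a (diamonds), larger for more UMIs. In the rIL7 section Ccl19 and most Cxcl13 symbols follow the outline, most densely at high rows, while Ccr7 also lies scattered over the interior.

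Co-occurrence was counted as spots with both genes, against the product of the 2 shares of spots. In the rIL7 section Ccl19 and Cxcl13 shared 10 spots where 0.905 were expected, a ratio of 11.1 (5.30 to 20.3). Ccr7 and Ccl19 shared 10 spots against 1.79, a ratio of 5.57 (2.67 to 10.2). Of these 10 spots, 4 lay in the group of 8 adjacent Ccr7 spots described above. Ccr7 and Tcf7 shared 15 against 5.83, and Ccr7 and Cxcl13 11 against 4.04. After thinning, these 2 pairs were at 3.23 (0.667 to 9.45) and 1.98 (0.240 to 7.16), both intervals that included 1. Thinned Ccl19 with Cxcl13 was at 8.91 (1.84 to 26.1) from 3 spots, and Ccr7 with Ccl19 at 8.62 (2.35 to 22.1) from 4. Klf2 and S1pr1, a factor and its target gene, shared 102 against 100.1 expected. In the control they shared 101 against 83.4, a ratio of 1.21 (0.987 to 1.47), and after thinning 31 against 31.7. When the expected number was added up over rim and interior, Ccl19 with Cxcl13 fell to 3.19 (1.53 to 5.87) and Ccr7 with Ccl19 to 3.19 (1.53 to 5.87). Ccr7 with Tcf7 fell to 2.03 (1.11 to 3.41). Ccr7 with Cxcl13 fell to 1.67 (0.802 to 3.07) and Tcf7 with Ccl19 to 2.33 (0.856 to 5.08), both intervals that included 1. Spots that held UMIs of 2 or more of the 3 chemokines numbered 10 in the rIL7 section, all in the rim, and 0 in the control.

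**Figure D5:**
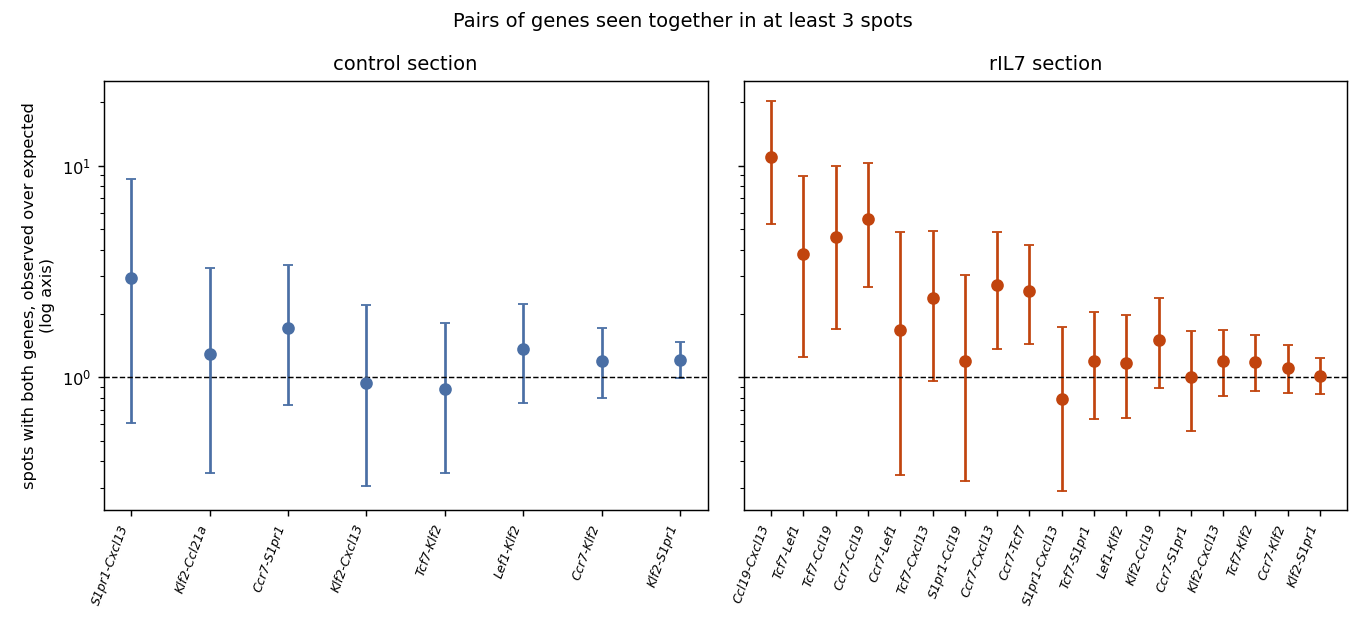
Spots with both genes of a pair, observed over expected on a log axis, for pairs seen in at least 3 spots, ordered by expected number; the dashed line is 1 and bars are exact 95% Poisson intervals of the observed count. In the rIL7 section the pairs among Ccl19, Cxcl13, Ccr7 and Tcf7 lie above 1, except that the interval of Tcf7 with Cxcl13 reaches it. With rim and interior accounted for, which is not plotted, those of Ccr7 with Cxcl13 and Tcf7 with Ccl19 include 1 as well. After thinning, also not plotted, those of Ccr7 with Tcf7 and Ccr7 with Cxcl13 include 1.

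Around the chemokines, other genes were compared within the rIL7 rim. Rim spots with Ccl19 and their 6 grid neighbours, 99 of 330 spots, held 57 of the 70 Ccr7 UMIs, 10.8 times (5.86 to 21.6) the level of the remaining rim. They include spots of the largest Ccr7 group, where 4 spots held Ccl19, so this value is not separate from that group. Ccl22 was at 5.59 times (3.36 to 9.57), Cd4 at 3.08 times (2.11 to 4.51), and Lta, a lymphotoxin that acts in lymphoid tissue formation, at 4.02 times (1.54 to 11.2). Around Cxcl13, Cd4 was at 4.19 times (2.80 to 6.37), and Cd79a, a B cell receptor component, had 11 UMIs against 1. Cxcr5, the receptor of CXCL13, had 9 UMIs in the whole rIL7 section and could not be placed. Ms4a1, a B cell marker, had 0 UMIs in the rIL7 rim.

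In the rIL7 rim, spots with Ccr7 had 2.94 times (2.42 to 3.56) the blood endothelial list, 2.57 times (2.25 to 2.94) the mature dendritic cell list and 1.94 times (1.75 to 2.16) the T cell list of spots without it. In the control rim the 24 spots with Ccr7 had 0.993 times (0.661 to 1.44), 1.08 times (0.832 to 1.39) and 1.05 times (0.771 to 1.40) these lists, and the difference between the sections was not tested. The rIL7 spots include the group of 8 adjacent Ccr7 spots. It held 83 of the 538 blood endothelial, 144 of the 1171 mature dendritic cell and 163 of the 2131 T cell UMIs of that rim. The rIL7 values are thus not separate from that group, and the control had no comparable group. In the rIL7 rim, spots with Cxcl13 had 3.07 times (1.44 to 6.12) the high endothelial venule list, from 12 UMIs, and 0.688 times (0.636 to 0.744) the fibroblast list, and spots with Klf2 had 0.958 times (0.879 to 1.05) the T cell list. How far the mix of cells in a spot set these values was not tested.

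The related pathway genes are given between the sections beside the 4.05% of all genes that were at least 2-fold higher and the 2.09% that were lower. Of 10 naive and memory T cell genes 2 were at least 2-fold higher, Cd27 at 3.36 and Satb1 at 3.11, and Klf3 was lowest at 0.984. Il7r, the IL-7 receptor, was at 1.85 (1.38 to 2.50). In the S1P axis 1 of 9 was higher, S1pr4 at 2.02, with S1pr2 lowest at 0.891. Of the homeostatic chemokine partners 2 of 4 with at least 20 UMIs were higher, Cxcl12 at 5.03 (4.01 to 6.36) and Ackr1 at 3.37, and Cxcr4 was lowest at 1.13. Of 5 inflammatory T cell chemokine genes 2 were higher, Cxcl9 at 3.01 and Ccl5 at 2.14. In the TCF/LEF family and Wnt target list 0 of 5 were higher or lower, with Tcf7l2 at 1.25 and Tcf7l1 at 0.892. Of 12 lymphoid organiser genes 1 was higher, Lta at 2.02, and Tnfsf13b was lowest at 0.832.

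The remaining lists mark other cells, and the same 4.05% and 2.09% stand beside their counts. In the high endothelial venule list 1 of 2 was higher, Chst2 at 2.02. Of 3 B cell genes 2 were higher, Cd22 at 2.91 and Cd79a at 2.87, and Cd79b was at 0.680. Of 6 mature dendritic cell genes 1 was higher, Ccl22 at 8.86 (5.10 to 16.6), and Fscn1 was at 1.01. In the blood endothelial (8), lymphatic endothelial (2), fibroblast (6), macrophage (7) and CT26 tumor (2) lists 0 genes reached 2-fold in either direction.

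Several of these lists were also higher in the rim of the rIL7 section. There 10 of 12 T cell genes, 3 of 3 B cell genes, 6 of 8 blood endothelial genes and 2 of 2 high endothelial venule genes were at least 2-fold higher in the rim, beside 6.83% of all genes, and Cxcl12 was at 12.3 times (10.1 to 15.0) its interior level. In the control rim 1 of 11 T cell genes and 0 of 8 blood endothelial genes were, beside 1.03%. Only 2 of the 5 listed high endothelial venule genes had at least 20 UMIs in the rIL7 section, and the whole list had 44 UMIs in its rim. Madcam1 and Chst4 were at 0 in the rIL7 interior, and Glycam1 had 2 UMIs in the largest Ccr7 group and 2 in the other rim spots. Whether such venules were present was not tested.

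Genes whose pattern was most like each gene were found by Pearson's r of log2(CPM + 1) over 16 zones, the rim and interior parts of the 4 quadrants of each section, among 11069 genes. The zones share libraries and depth, so r is a description. Ccr7 was closest to Bst1 (0.97), Sdc3 and Gypc. Tcf7 was closest to Gas7 (0.94), Pmaip1 and Cd8b1, Lef1 to Rnf130 (0.86), Ppp2r5c and Ppt2, and Klf2 to Tpsb2 (0.85), Lum and Atmin. S1pr1 was closest to Arntl (0.89) and Ctnnd1, Ccl19 to Clec10a (0.94), Arrdc4 and Gltp, Ccl21a to Acot8 (0.81), Mrps36 and Lrrc47, and Cxcl13 to Psap (0.97), Rab32 and Dgkz. Among the 8 genes, r was 0.88 for Ccl19 with Cxcl13 and 0.88 for Ccr7 with Cxcl13.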

How the data were processed

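RNA of 1 control and 1 rIL7 section was counted in Visium spots. The authors processed the reads with SpaceRanger 1.1.0 against mm10 (GRCm38), and deposited UMI counts, not normalized, for each gene in each spot. Spots over tissue were kept with over 200 genes and under 10% mitochondrial UMIs. UMIs were summed per section, rim or interior and divided by the total (CPM). Intervals of 95% are exact Poisson for a level and exact binomial (Clopper-Pearson) for a ratio; with 1 section per group there was no test. A gene at 0 was set to a floor of 3 UMIs. Medians and calls used genes with at least 20 UMIs, and a call is a ratio of at least 2. For thinning, each spot was reduced to 5900 UMIs, leaving out 217 and 81 shallower spots. Python 3.11.15 was used with numpy 2.4.6 and scipy 1.17.1; TMM (edgeR 4.0.16) and median-of-ratios (DESeq2 1.42.0) scaling were alternatives. The calculation was tested on simulated data. Coordinates are from RefSeq GRCm38.

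The 8 genes and the 16 further lists were chosen with earlier results of these data known. The genes named are the 8, the highest and lowest of each list with up to 2 defining genes, the 3 most alike by zone, and the copies of Ccl19 and Ccl21a, except a few genes that are not reported here; genes leading in the Ccr7 spots, and those near chemokine spots, were chosen after their values were seen. Leaving out the top spot, the largest Ccr7 group or 1 quadrant, and dropping the minimum for the genes, were alternatives added after seeing the data. The image scale factors deposited by the authors were not used.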

Additional observations from a re-analysis of the deposited data

How the results depend on the processing

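With 1 section per group no result has a replicate check, and depth limits Ccl19, Ccl21a, Lef1 and control Tcf7 and Cxcl13 to 34 UMIs or fewer. No paired analysis was possible because each group holds 1 section. The median log2 ratio between the sections, 1.23, was 0.48 with interior spots alone, 2.62 with rim spots alone, 0.68 for genes with at least 50 UMIs and 0.68 with no minimum; Klf2 turned from -0.48 to 0.057 with rim spots alone. The shift of the log2 ratios was 0.01 with TMM and 0.01 with median-of-ratios scaling. The rim-to-interior contrast between sections for Ccr7 moved from 1.54 to 4.24 with a rim of 1 ring. Observed over expected shared spots over all 28 pairs, 1.20 in the control, fell to 0.945 after thinning to equal depth, a reversal in the point value. There 49 were observed against 51.8 expected, so the excess in the control was not seen at equal depth. In the rIL7 section the value moved from 1.25 to 1.44 after thinning and to 1.08 for a spot with its 6 neighbours. Fewer of the genes reach a minimum of 100 UMIs. With it, calls of at least 2-fold between sections went from 4 of 7 to 2 of 4 (beside 2.27% of all genes). Those in the rim went from 5 of 7 to 1 of 3 in the rIL7 section (3.87%) and from 1 of 4 to 0 of 2 in the control (0.202%). In the control rim 1.5-fold at 20 UMIs gave 2 of 4 (3.38%). Of 198 values of single genes, 184 stayed within the counting interval, 13 moved outside it and 1 reversed; the cause was not tested.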

Other observations

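Outside the largest piece of tissue lay 12 spots of the control and 21 of the rIL7 section, which entered the section levels but no rim comparison. They held 5 Ccr7 UMIs in the rIL7 section and 1 in the control, 5 and 1 of S1pr1, and 13 and 6 of Klf2. The ratio for Ccr7 was 2.68 (0.300 to 127), which is not a detectable difference at this depth.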
